A study of Mus musculus with 4 samples.

Results

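Coding exon regions away from transcript starts are places where chromatin of the embryonic mouse limb was called open with a summit in protein-coding sequence and away from annotated starts. They were found by pooling the peak summits of 4 ATAC-seq lists, extending each summit by 250 bp on each side and merging what overlapped. A merged region was kept when at least 1 of its summits lay inside a GENCODE M1 coding exon and every summit lay more than 1 kb from any annotated transcript start. This left 1425 of 74669 regions. The other regions comprised 24683 intronic, 28710 intergenic and 1257 other exonic regions away from starts, 18510 regions within 1 kb of a start and 84 regions on unplaced sequence. A coding exon summit at any distance was found in 6446 regions, and 5021 of these were set aside because a summit lay within 1 kb of a start. Among the 1425 regions kept, 704 (49.4%) had every summit in a coding exon. Starts missing from the annotation were not searched for.

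ATAC-seq uses the Tn5 transposase, which inserts adapters where DNA is not wrapped tightly in nucleosomes, so that open promoters and enhancers collect fragments. Most coding exons lie in the body of a gene and are wrapped in nucleosomes, yet coding sequence can also hold binding sites for transcription factors and for CTCF, the zinc finger protein that helps to form chromatin loops and domain boundaries. A site of this kind has to serve the protein code and the factor with the same bases.

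The libraries were made from forelimb and hindlimb cells of embryos at stage E11.5, of the strain given as c57bl6.J X 129S6.sv. There were 2 libraries with the genotype label Mutant (Stop Cassette Insertion) and 2 labelled Wild Type, and the study was about the limb gene En1 and the non-coding RNA locus Maenli. A stop cassette is an insertion meant to end transcription early, and the labels do not say where it was placed. The labels also do not say whether replicates came from separate embryos or pools, so p-values measure only the spread between these samples.

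The lists held 51701 to 107827 peaks, and the wild-type lists were the shorter pair. Peaks of the wild-type lists are named with 1 common replicate number and a sub-number, and those of the stop cassette lists with 2 replicate numbers. Sequencing depth is unknown because the lists hold no read counts. Among the limb mesenchyme markers, 8 of 12 had a peak within 1 kb of a start in all 4 lists, and 1, Tbx5, had none in any list. Liver markers had no such peak (0 of 3 genes in any list), nor did heart markers (0 of 2). Of the blood markers, 2 of 3 were open at the start in all 4 lists, as were 2 of 3 neural and 1 of 3 endothelial markers. Of the surface ectoderm markers, 0 of 4 were open in all 4 lists and 2 were open in none. Of the muscle precursor markers, 0 of 3 were open in all 4 lists and 0 were open in none. Whether these cell types were present, and what they contributed to the coding exon regions, was not tested.

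The sequences of a few regions show what such an open exon looks like. The first set comes from regions held by all 4 lists that are among the highest-ranked, and from a signalling gene, with coding bases in capitals and intron bases in lower case. These sequences are from the NCBIM37 (mm9) genome, cover 201 bp centred on the region's highest summit in a coding exon, and run 5′ to 3′ on the strand of the gene.

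Prdm2, chr4:142751954-142752154, minus strand: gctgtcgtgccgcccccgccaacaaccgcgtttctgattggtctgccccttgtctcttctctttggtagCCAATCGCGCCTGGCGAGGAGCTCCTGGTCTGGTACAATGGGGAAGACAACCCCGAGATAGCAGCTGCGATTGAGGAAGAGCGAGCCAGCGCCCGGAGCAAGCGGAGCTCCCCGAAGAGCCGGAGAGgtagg

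Clec11a, chr7:51560248-51560448, minus strand: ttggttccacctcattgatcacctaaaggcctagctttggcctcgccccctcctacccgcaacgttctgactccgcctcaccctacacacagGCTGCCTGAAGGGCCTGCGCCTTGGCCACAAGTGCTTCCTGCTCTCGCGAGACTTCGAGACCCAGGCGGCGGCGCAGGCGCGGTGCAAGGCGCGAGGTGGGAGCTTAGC

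Gdf6, chr4:9786999-9787199, plus strand: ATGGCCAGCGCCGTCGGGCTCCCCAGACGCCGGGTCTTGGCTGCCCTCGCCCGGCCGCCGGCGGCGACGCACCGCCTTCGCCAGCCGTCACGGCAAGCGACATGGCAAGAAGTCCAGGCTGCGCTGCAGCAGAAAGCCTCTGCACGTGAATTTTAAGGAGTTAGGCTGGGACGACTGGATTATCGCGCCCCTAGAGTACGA

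In Prdm2 and Clec11a the window spans the junction from intron into exon, and in Gdf6 it lies wholly in coding sequence. GC content was 62.7% in the Prdm2 window, 64.2% in Clec11a and 66.2% in Gdf6.

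The second set shows exons that carry a match to the 12-letter CTCF core consensus, with the match in capitals and 45 bp on each side. These are from the same genome, are centred on the match and run 5′ to 3′ on the strand on which the consensus reads, which is opposite to the gene in Robo3, Gfap and Odz2. Robo3 and Gfap were held by all 4 lists, whereas Odz2 and Foxj2 were in the 2 stop cassette lists and absent from the wild-type lists. The 4 matches are among those of highest rank in their group and lie entirely inside coding exons.

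Robo3, chr9:37228465-37228566, plus strand: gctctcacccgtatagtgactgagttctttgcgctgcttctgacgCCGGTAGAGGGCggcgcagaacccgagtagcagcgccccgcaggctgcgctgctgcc

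Gfap, chr11:102754389-102754490, plus strand: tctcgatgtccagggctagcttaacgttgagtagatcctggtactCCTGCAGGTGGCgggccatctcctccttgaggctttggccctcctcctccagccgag

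Odz2, chr11:36034870-36034971, plus strand: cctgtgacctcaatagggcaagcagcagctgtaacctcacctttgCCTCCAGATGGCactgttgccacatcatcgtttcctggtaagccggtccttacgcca

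Foxj2, chr6:122778246-122778347, plus strand: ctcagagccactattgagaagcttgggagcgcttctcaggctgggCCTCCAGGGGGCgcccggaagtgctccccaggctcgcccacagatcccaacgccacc

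Robo3 encodes an axon guidance receptor and Gfap an intermediate filament protein of glia. The Robo3 region ranked at percentile 88.1 of the peak score in stop cassette replicate 1, 95.2 in replicate 2, 86.6 in wild-type replicate 1 and 91.8 in replicate 2. Here the percentile is the share of a list's own peaks with a score no higher than that of the region's highest summit, so 100 is the strongest peak of a list. The Gfap region ranked at 94.9 and 84.1 in the stop cassette lists and at 79.9 and 85.7 in the wild-type lists. Odz2, which encodes a teneurin cell adhesion protein, ranked at 73.9 and 80.9 in the stop cassette lists and was in neither wild-type list. Foxj2, a forkhead transcription factor, ranked at 69.3 and 74.3 in the stop cassette lists and was likewise in neither wild-type list.

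Letters of the CTCF consensus, searched on both strands of the 201 bp window at the highest coding summit, were found in 156 of 1425 coding exon regions (10.9%). The same letters were in 0.416% of windows at the midpoints of all 149455 coding exons more than 1 kb from a start. They were in 7.97% of intronic, 9.07% of intergenic and 3.98% of start windows. In regions of other exons away from starts the share was 14.4% (181 of 1257), above that of coding exon regions. A match is a description of letters and not of a bound protein. Of the 156 matches, 89 lay inside the coding exon, 21 crossed its edge and 46 lay outside it. The centre of the match was a median of 44.5 bp from the summit, and 108 lay within 50 bp of it. The match read on the strand opposite to the gene in 101 regions and on the same strand in 55. Among the windows at exon midpoints 339 were opposite, 280 the same and 2 held a match on both strands.

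Matches were found in 12.3% of the coding exon regions held by stop cassette replicate 1, 11.8% in replicate 2, 10.8% in wild-type replicate 1 and 10.1% in replicate 2. Both stop cassette lists were thus above both wild-type lists, by small margins. Regions in the 2 stop cassette lists but absent from the wild-type lists, called stop cassette-specific here, had a match in 38 of 186 cases (20.4%). Read the other way, 24.4% of coding exon regions with a match were stop cassette-specific, against 11.7% of those without. The same order was seen in introns (19.5% against 12.04%) and in intergenic regions (16.6% against 10.02%), so it was not particular to exons.

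Coding exon regions were rich in GC and in CpG, the dinucleotide that is depleted from most of the genome and kept in CpG islands. Median GC content was 58.7%, against 49.3% at the midpoints of all coding exons away from starts, 49.8% in intronic, 49.3% in intergenic and 63.7% in start windows. The ratio of observed to expected CpG was above 0.6 in 37.3% of coding exon regions and in 9.31% of exon midpoints. It was above 0.6 in 4.49% of intronic, 7.88% of intergenic and 64.6% of start windows. Coding exon regions therefore lay between other exons and promoters in base composition. Among those held by all 4 lists the share above 0.6 was 45.9%, and among the stop cassette-specific ones 23.7%.

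**Figure D1:**
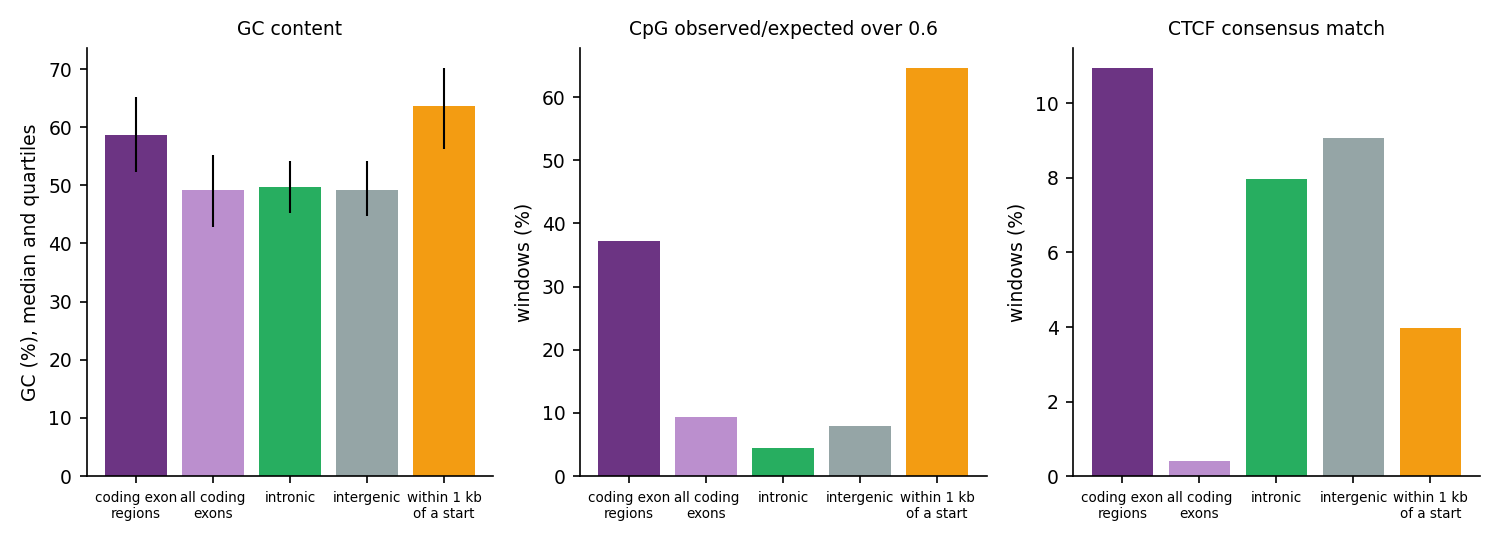
Base composition and CTCF consensus matches in 201 bp windows at the highest summit of each region, and at the midpoints of all coding exons over 1 kb from a start. For coding exon regions the window is at the highest summit in a coding exon, which need not be the highest of the region. Bars show the median GC content with quartiles (left) or the percent of windows (middle, right). Coding exon regions stand above all coding exons in each panel, at 58.7% GC, 37.3% of windows with a CpG ratio above 0.6 and 10.9% with a CTCF match.

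Other short motifs followed this composition in part. GGGCGG, a GC box letter string, was in 22.1% of coding exon regions, 4.56% of exon midpoints and 53.3% of start windows, on either strand. CCGGAA, the core of ETS factor sites, was in 6.53%, 4.83% and 16.1%. TAATTA, a homeodomain core, was in 1.33% of coding exon regions, 3.22% of exon midpoints, 6.44% of intronic and 6.76% of intergenic windows. TGANTCA, the AP-1 core, was in 4.35% of coding exon regions, against 7.81% of intronic and 7.68% of intergenic windows. CANNTG, the E-box, was in 71.4% of coding exon regions and 73.8% of intronic windows. Some of these letter strings overlap each other or are shared with CpG-rich sequence, and none was tested.

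Copies of the sequence elsewhere in the genome were rare. In 1341 regions (94.1%) no 32-base stretch of the window occurred again in the genome, and in 12 regions more than 50% of the stretches did. In the Itga6 window, from an integrin gene, 1 stretch occurred 3344 times. The part of such copies in the signal was not tested.

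Presence differed by list. The number of coding exon regions held was 978 in stop cassette replicate 1, 1251 in replicate 2, 636 in wild-type replicate 1 and 834 in replicate 2. Both stop cassette lists held more than both wild-type lists, as they did for peaks of any class. The means were 1114.5 ± 193 and 735 ± 140 (SD, n = 2 each), a difference of 379.5 (two-sided exact permutation test, p = 0.333, the smallest that 2 against 2 lists allow). As a share of each list's regions away from starts, coding exon regions made up 3.31% (Wilson 95% interval 3.11 to 3.52), 2.70% (2.55 to 2.85), 3.83% (3.55 to 4.13) and 3.33% (3.12 to 3.56), in the same order of lists. The mean share was 3.00% ± 0.432 in the stop cassette lists and 3.58% ± 0.351 in the wild-type lists. With the lists as deposited the groups did not overlap, but wild-type replicate 2 and stop cassette replicate 1 differed by less than their intervals. With every list cut to the length of the shortest, the groups overlapped. The difference in share was then -0.124 points (two-sided exact permutation test, p = 0.667). As deposited, the difference of -0.578 percentage points gave p = 0.333 (two-sided exact permutation test). The Wilson intervals cover counting error only.

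Of the 1425 regions, 482 (33.8%) were held by all 4 lists, beside 32% of all regions and 18.6% of the other regions away from starts. Where every summit of a region had to lie in a coding exon, the share was 16.5%, below that of the other regions away from starts. Another 369 (25.9%) were in 1 list, against 45.5% of intronic regions, while 320 were in 2 lists and 254 in 3. Stop cassette-specific regions numbered 186 (13.1%), and 10% of all regions were called that way. Regions in the 2 wild-type lists but absent from the stop cassette lists, the wild type-specific ones, numbered 9 (0.632%), with 0.313% of all regions as background. Stop cassette replicate 2, the longest list, alone held 217 regions, and the other lists alone held 98, 21 and 33.

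When each list was cut to the length of the shortest, 51701 peaks, the lists held 624, 654, 557 and 579 coding exon regions and the total was 923. Stop cassette-specific regions were then 65 (7.04%) with a background of 5.22%, wild type-specific regions 20 (2.17%) with 2.23%, and regions in all 4 lists 341 (36.9%) with 38.3%. The imbalance of 186 against 9 was thus 65 against 20 at equal length, and the 2 genotype-specific shares were then close to those of intronic regions (7.10% and 2.72%). Of the other classes away from starts, 17.97% of intronic and 23.6% of intergenic regions were in all 4 lists at equal length, below the 36.9% of coding exon regions under the any-summit rule.

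**Figure D2:**
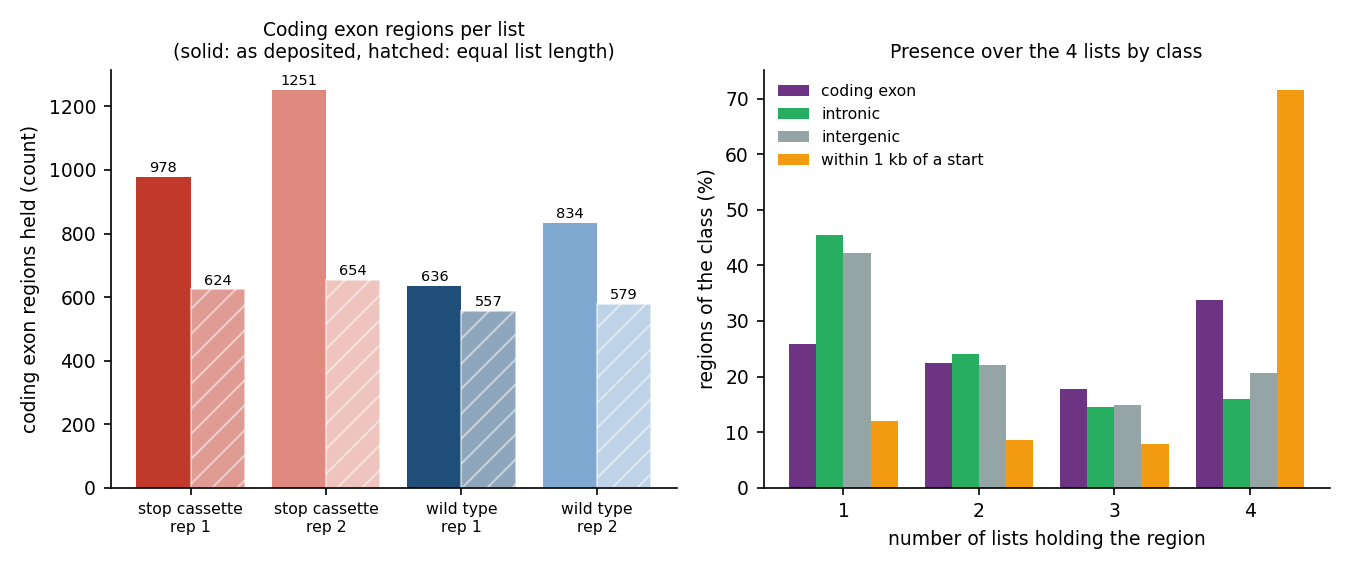
Left, coding exon regions held by each list, as deposited (solid bars, 636 to 1251) and with every list cut to 51701 peaks (hatched bars, 557 to 654). Right, the percent of each class held by 1, 2, 3 or 4 lists, where coding exon regions in all 4 lists (33.8%) lie between intronic regions (16.0%) and regions within 1 kb of a start (71.5%), though at 16.5% where every summit must be coding.

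Coding sequence took up 1.07% of the genome more than 1 kb from a start, but held 2.43% and 2.04% of such summits in the stop cassette lists and 2.64% and 2.34% in the wild-type lists. The density in coding sequence was therefore 2.26, 1.90, 2.46 and 2.18 times that over all sequence away from starts, above 1 in 4 of 4 lists (mean 2.202 ± 0.232, SD, n = 4). The stop cassette mean minus the wild-type mean of this ratio was -0.238 (two-sided exact permutation test, p = 0.667). Against introns the coding density was 1.94, 1.66, 2.33 and 2.005 times as high. The ratio to introns exceeded 1 in every list at every distance from a start examined. It was 1.75 to 2.46 between 1 and 2 kb, 1.63 to 1.98 between 5 and 10 kb and 1.26 to 1.82 between 10 and 100 kb. Beyond 100 kb the coding summits numbered 9, 24, 6 and 12 in the 4 lists, too few for a narrow estimate.

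**Figure D3:**
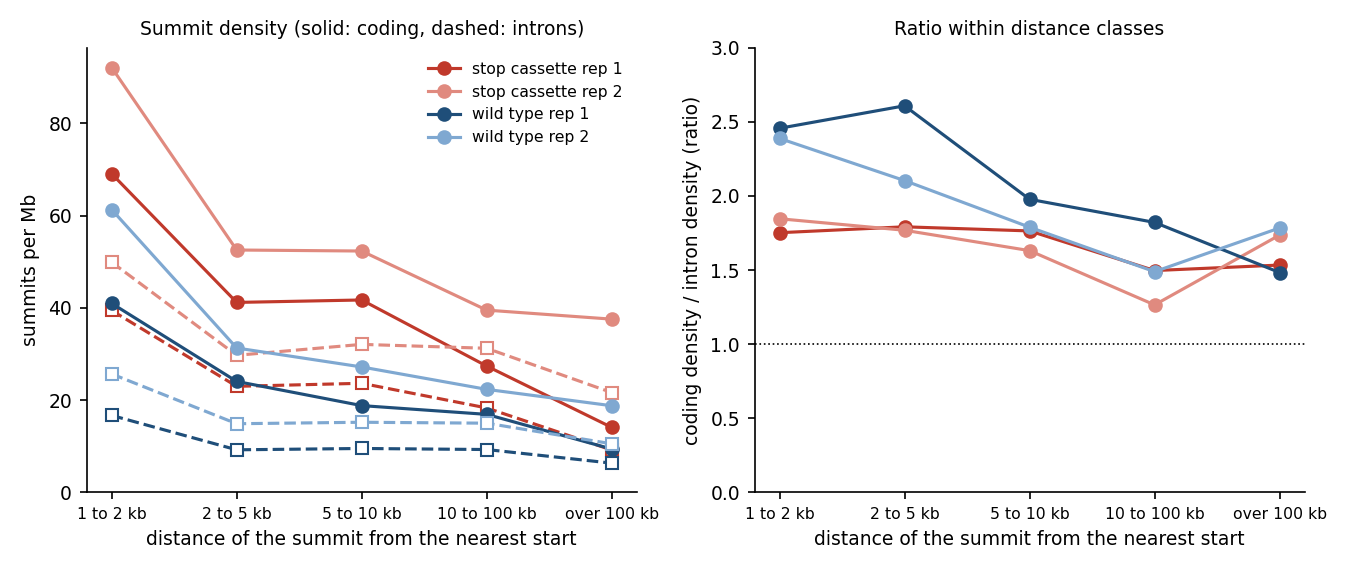
Left, summits per Mb in coding sequence (solid lines) and introns (dashed lines) by distance from the nearest transcript start, 1 line per list. Right, the ratio of coding to intron density, which is above 1 (dotted line) for all 4 lists in all 5 distance classes, between 1.26 and 2.61.

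Regions were not spread evenly over exons. Last coding exons held 382 regions, 83.5 per Mb of last-exon coding sequence, and internal exons held 903, 47.4 per Mb. A region's exon was taken from the longest coding transcript at its summit, and the Mb from each gene's longest coding transcript. These transcripts can differ, so densities by exon place and length are approximate. Last exons were denser than internal exons in every list, at 59.5 against 32.5 per Mb in stop cassette replicate 1, 74.3 against 41.3 in replicate 2, 41.5 against 19.9 in wild-type replicate 1 and 52.9 against 26.2 in replicate 2. First coding exons held 76 regions (73.0 per Mb), and exons that were the only coding exon of their transcript held 64 (52.1 per Mb). By exon length the density was 51.2 per Mb in exons up to 150 bp, 59.0 above that and up to 300 bp, 72.9 above that and up to 1000 bp, and 38.2 in longer exons. The exon at the summit was a median of 193 bp long, and the summit lay a median of 48 bp from its edge. The windows of 501 bp and more thus reached past the exon in most cases, and 62.5% of these exons were shorter than 250 bp. The regions were 628 bp wide at the median and held 3 summits, against 519 bp and 2 summits in introns.

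The median distance to the nearest start was 6819 bp, and 245 regions lay between 1 and 2 kb from one. Just outside the limit lay regions in Car2 (1002 bp), which encodes a carbonic anhydrase, Hbb-y (1006 bp), an embryonic globin gene, and Synj1 (1007 bp), which encodes a lipid phosphatase of synaptic vesicle recycling. Car2 was held by both stop cassette lists at percentiles 54.5 and 43.3, and Hbb-y and Synj1 by stop cassette replicate 1 alone at 32.3 and 3.95. Just inside it, and so not counted, lay regions in Gja10 (1000 bp), Trfr2 (996 bp) and E130308A19Rik (988 bp). The widest regions were in Hcrtr2 (2673 bp), an orexin receptor gene, BC068157 (2293 bp) and 3930402G23Rik (2147 bp), each held by all 4 lists. On the X chromosome there were 15 regions (15.5 per Mb of coding sequence away from starts), below the 45.8 to 73.1 per Mb of the autosomes.

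Peak scores ranked coding exon regions above intronic ones within each list under the rule used here. Their median percentile was 58.6 and 60.6 in the stop cassette lists and 42.3 and 52.2 in the wild-type lists, and the intronic medians were 42.5, 49.4, 34.2 and 39.1. Coding exon regions were higher by 16.0, 11.2, 8.09 and 13.1 percentile points (mean 12.1 ± 3.34, SD, n = 4, two-sided exact sign-flip permutation test, p = 0.125, the smallest that 4 lists allow). Against intergenic regions the differences were 11.03, 11.2, 1.35 and 5.12 points (mean 7.16 ± 4.79, exact permutation p = 0.125). Regions in other exons away from starts had medians of 50.1, 53.2, 48.2 and 48.9. In wild-type replicate 1 their median was above that of coding exon regions. The stop cassette median of coding exon regions exceeded the wild-type median by 12.3 points (59.6 ± 1.40 against 47.2 ± 7.01, SD, n = 2 each, exact permutation p = 0.333). Intronic medians differed in the same direction, and the lists differ in length. This genotype difference was 19.6 points at equal list length (exact permutation p = 0.333), 1.69 above a score of 5.83 (exact permutation p = 0.667) and 1.70 where every summit had to be coding (exact permutation p = 1).

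This ranking depended on how a region was assigned to a class. The rule keeps a region when any of its summits is in a coding exon, so a region with more summits has more chances to enter. Where every summit had to lie in a coding exon, 704 regions remained, with medians of 39.1, 43.6, 34.2 and 45.1. The mean difference was then -0.818 points from introns (exact permutation p = 1) and -5.75 points from intergenic regions (exact permutation p = 0.125), and 16.5% of the regions were held by all 4 lists. With the class taken from the highest summit of the region, an alternative chosen after the data were seen, 1002 regions had medians of 50.1, 53.3, 37.2 and 52.2, and 25.9% were in all 4 lists. The mean difference was then 6.51 points from introns (exact permutation p = 0.125) and 1.85 points from intergenic regions (exact permutation p = 0.5). Over single summits the medians were 43.1, 44.4, 35.5 and 45.2 in coding exons and 38.8, 41.1, 34.2 and 39.1 in introns. The intergenic summit medians were 40.5, 44.6, 37.4 and 40.6, above those of coding exons in 2 of the 4 lists.

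**Figure D4:**
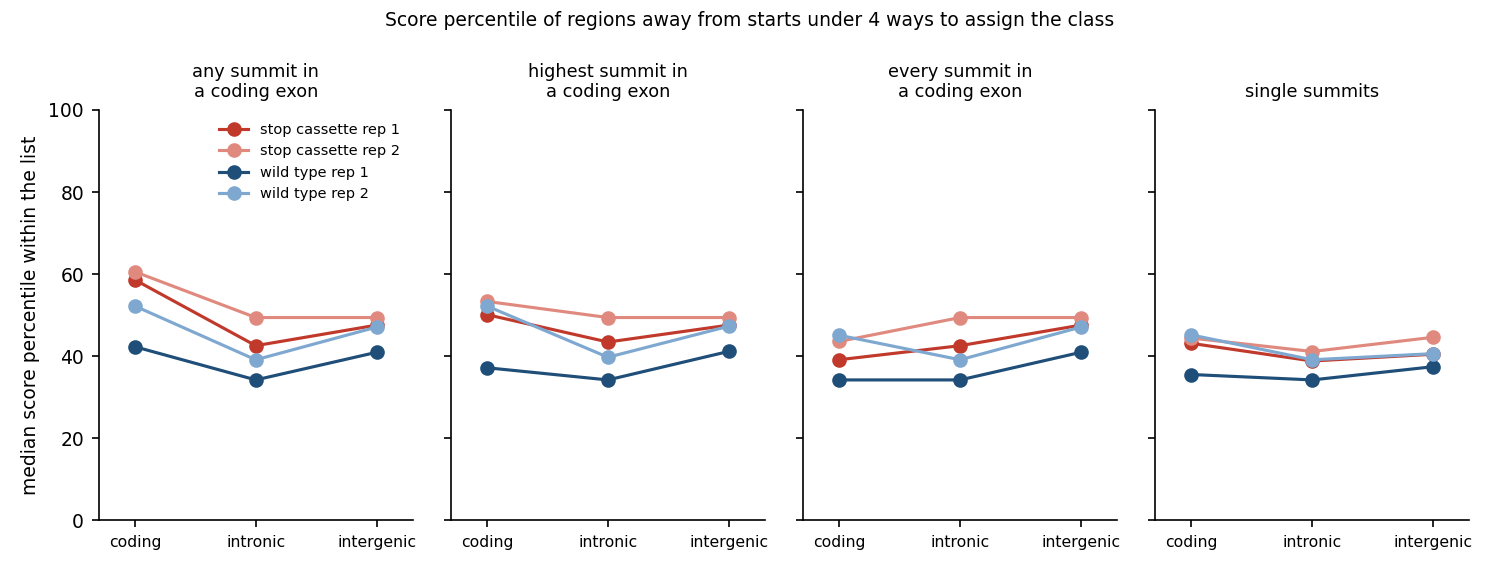
Median score percentile of coding, intronic and intergenic regions away from starts, 1 line per list, when a region is assigned by any summit, by its highest summit or by all its summits, and over single summits. Coding exon regions lead introns by 8.09 to 16.0 points in the first panel, and the medians lie between 34.2 and 45.1 when every summit must be coding.

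The 10 highest-ranked regions held by all 4 lists were in Prdm2, 3300002I08Rik, Clec11a, Nup160, Syp, Apold1, Capn2, Celsr3, Kank3 and Gnb5. Prdm2 encodes a PR domain chromatin protein, and its region, chr4:142751401-142752746, had 3 of 7 summits in coding exons and lay 4010 bp from the nearest start. It ranked at 96.7 and 99.1 in the stop cassette lists and at 95.6 and 99.8 in the wild-type lists, so it was among the strongest peaks of each list. The 3300002I08Rik region, chr2:150136619-150137667, ranked at 92.9, 99.9, 98.9 and 97.3. Clec11a encodes a secreted growth factor of the skeletal system. Its region, chr7:51559719-51560826, had 5 of 7 summits in coding exons and ranked at 95.7, 97.8, 97.6 and 97.4. The region of Nup160, a nuclear pore gene, chr2:90518747-90520238, ranked at 97.1, 99.0, 90.4 and 96.2. Only 1 of its 11 summits was in a coding exon, coding exon 2. Syp, a synaptic vesicle protein gene, ranked at 96.2, 98.1, 88.3 and 96.95, and 88.3 was the lowest value of these 10 regions in any list. The other members of this group, an endothelial gene (Apold1), a calpain protease (Capn2), an atypical cadherin (Celsr3), an actin regulator (Kank3) and a G protein subunit (Gnb5), ranked between 90.3 and 98.3 in the 4 lists. In Syp 1 of 5 summits was in a coding exon, in Gnb5 2 of 10 and in Kank3 8 of 8. The percentiles are those of the highest summit of a region, which need not be a coding one.

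The highest-ranked stop cassette-specific regions were in Pnpla6, Gtf2f1, Pus10, Pinx1 and Hemgn. Pnpla6 encodes a phospholipase of nerve and its region, chr8:3535726-3536899, ranked at 93.2 and 89.4 in the stop cassette lists and was in neither wild-type list. Gtf2f1, a subunit of a general transcription factor, ranked at 83.2 and 80.9, and Pus10, a pseudouridine synthase gene, at 82.3 and 79.7. Pinx1, which encodes an inhibitor of telomerase, ranked at 80.7 and 78.8, and Hemgn, a gene of blood development, at 81.6 and 77.4.

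The 9 wild type-specific regions were in Gm10801, Ddc, Gm10722, C230081A13Rik, Scn8a, Gbx1, Shank3, Sfi1 and Fam83h. Gm10801 led at 62.1 and 65.0, followed by Ddc, the gene of an enzyme of dopamine synthesis, at 28.8 and 63.8. Gm10801 and Gm10722 contain sequence found many times in the genome, up to 67 and 104 copies of a 32-base stretch. The part of these copies in the calls was not tested. Among the 9, 3 windows held such repeated stretches. Gbx1, a homeobox gene, ranked at 6.54 and 31.9 and Shank3, a synaptic scaffold gene, at 28.3 and 9.56. The weakest were Sfi1, a centrosome gene, at 9.56 and 3.38 and Fam83h at 1.26 and 4.25, near the weak end of both lists.

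The 1425 regions lay in 1317 genes, all protein-coding, and 1218 of the genes held 1 region. Syne1, which encodes a giant nuclear envelope spectrin-repeat protein, and Unc13a, which encodes a synaptic priming protein, held 4 each. Dnahc1, Kif26b, Pcca, Scn8a, Spnb4, Synj1 and Utrn held 3 each. In Unc13a the region at chr8:74152779-74154187 was in all 4 lists at 86.3, 94.6, 90.2 and 82.7, and that at chr8:74184127-74185152 was also in all 4, at 70.0, 82.9, 80.0 and 26.9. The other regions of Unc13a were absent from wild-type replicate 1. In Syne1 the region at chr10:5056759-5057881 was strongest, at 83.7, 95.5, 83.3 and 94.6. Of its 3 other regions, 2 were missing from 1 list.

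Genes with a coding exon region more often had an open start than protein-coding genes as a whole, which include them. Among 1315 such genes, 73.4%, 78.1%, 68.0% and 73.7% had a peak within 1 kb of a start in the 4 lists, against 61.5%, 64.5%, 59.1% and 61.6% of 22367 protein-coding genes. In 262 genes (19.9%) no list had one, against 34.5% of all. Their 282 regions were held by all 4 lists in 109 cases (38.7%), and regions of genes open in all 4 lists in 301 of 935 (32.2%). Clec11a, Nup160, Apold1 and Gnb5 were among those with no peak near their start, noted after their values were seen. Not every protein-coding gene could hold a region. In the count by gene group, 19199 of 22225 had coding sequence more than 1 kb from a start.

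Gene groups differed in density. Limb patterning genes held 19 regions in 18 of 77 genes, 205 per Mb of their coding sequence away from starts (exact Poisson 95% interval 123 to 320), and signalling genes 20 regions in 18 of 96 genes, 153 per Mb (93.2 to 236). All protein-coding genes held 54.1 per Mb (51.3 to 56.99), with a region in 5.93% of genes. In the separate lists the limb patterning density was 162, 183, 86.3 and 140 per Mb, above 37.1, 47.5, 24.1 and 31.7 for all genes in each of the 4. The groups were chosen with earlier results known, and no test was made. The median percentile of the limb patterning regions was 34.0, below the 45.8 of all coding exon regions.

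Among the limb patterning genes, Lhx9, a LIM homeobox gene of the limb bud, stood at 86.9, 80.5, 55.0 and 40.1, and the related Lhx2 at 77.1, 87.4, 27.2 and 41.5, both higher in the 2 stop cassette lists than in the wild-type lists. Shox2, a homeobox gene of the proximal limb, stood at 67.0, 69.5, 12.9 and 72.8, and Gli2, a transcriptional effector of Hedgehog signalling, at 26.5, 83.1, 65.9 and 82.7, with no common order of lists. Barx2 (58.6, 60.6, 34.2 and 67.7) and Sp8, a factor of the limb apical ridge (2.79, 45.9, 13.2 and 26.3), were also held by all 4 lists. En1 itself had 1 region, chr1:122503286-122503786, in stop cassette replicate 2 alone, at 1.03, among the weakest peaks of that list.

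Among signalling genes, Gdf6, a BMP family ligand of joint formation, ranked at 80.8, 89.9, 80.1 and 83.2 in its region chr4:9786553-9787354, with little spread between lists. Notch3, a Notch receptor gene, ranked at 82.9, 85.0, 62.3 and 74.7, and Jag1, a ligand of Notch receptors, at 70.2, 88.9, 48.3 and 80.5 in the region of its coding exon 18 of 26. Bmpr1b, a BMP receptor gene, ranked at 65.0, 79.7, 59.0 and 74.7, and Bmp2, a ligand of this family, at 63.5, 54.2, 24.2 and 12.8. Hey1, a target of Notch signalling, ranked at 75.3, 83.2, 29.0 and 58.5. Lrp6, a Wnt coreceptor gene, ranked at 71.4, 67.7, 9.94 and 26.0, and Wnt10a, a Wnt ligand gene, at 14.2, 70.0, 39.3 and 63.0.

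HOX genes had 3 regions (in Hoxb2, Hoxb4 and Hoxc9), 217 per Mb (44.8 to 635), and none in all 4 lists. The HOX interval included the density of all genes. Over the pooled lists the intervals of forkhead and Sox genes lay above that density. Forkhead genes had 7 regions in 42 genes, 178 per Mb (71.4 to 366). Sox genes had 5 in 18 genes, 369 per Mb (119.9 to 862) over little sequence. All 7 forkhead regions were in stop cassette replicate 2, the longest list, and 0 were in all 4 lists. By list the forkhead density was 50.7, 178, 50.7 and 76.1 per Mb, from 2, 7, 2 and 3 regions. Sox genes had 3, 5, 2 and 2 regions by list. The forkhead regions had a median percentile of 25.5 and lay a median of 1588 bp from a start. Chromatin regulator genes had 5 regions in 70 genes, 16.9 per Mb (5.48 to 39.4), and zinc finger genes named Zfp had 13 in 367 genes, 21.4 per Mb (11.4 to 36.7). Extracellular matrix genes held 19 regions at 65.4 per Mb and cytoskeletal and giant scaffold genes 25 at 41.1 per Mb, with intervals that include the density of all genes. Olfactory receptor genes had 0 regions in 0.0621 Mb, which allows up to 48.3 per Mb at 3 counts. The exact Poisson interval used for the other groups reaches 59.4 per Mb and includes the density of all genes, so a lower density was not detectable. Of the liver genes, Alb (38.8, 85.7, 48.2 and 66.7) and Apoa1 (76.8, 87.2, 24.6 and 75.8) had a coding exon region in all 4 lists although the start of neither was open in any.

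**Figure D5:**
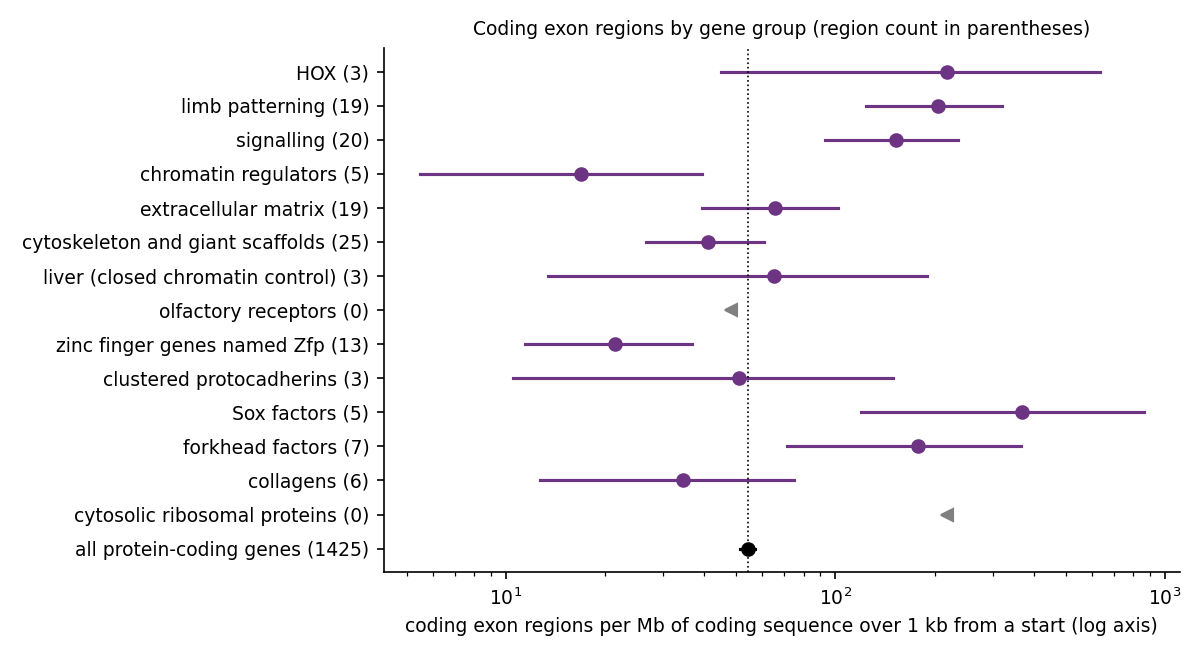
Coding exon regions per Mb of coding sequence more than 1 kb from a start for each gene group, with exact Poisson 95% intervals that cover counting error only (log axis; triangles mark the limit that a count of 0 allows; the dotted line is all genes, 54.1 per Mb). Over the pooled lists the intervals of limb patterning, signalling, Sox and forkhead genes lie above the line, and those of chromatin regulators and Zfp genes lie below it.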

How the data were processed

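ATAC-seq peak lists were deposited for 4 mouse libraries, 2 per genotype, with 1 list per library. Rows hold a 1 bp summit on mm9, a name and a number. In the deposited lists this number reads as −log10 of a q-value, since its lowest entry of 1.30 to 1.31 matches a q-value of 0.05. It was used only to rank peaks within a list, apart from 1 stricter threshold. Reads were aligned with Bowtie2 2.2.6 and treated with Picard, per the submitters' processing notes. Peak names in the deposited lists record removal of duplicate and mitochondrial reads and a mapping quality of 30. The peak caller, any read shift for Tn5 and any control are not given in the sources used here, and a missing shift would move a summit by a few bases. Depth is unknown.

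Summits were extended by 250 bp, merged and classed with GENCODE M1 on NCBIM37, the same build (0 summits beyond the ends of 21 chromosomes), with Python 3.11.15, pandas 2.3.3, numpy 2.4.6, scipy 1.17.1 and matplotlib 3.10.9. Genotypes were compared with exact permutation tests and shares with Wilson intervals. Regions were named by rank, by gene count, by width, by distance from a start and by membership in the limb patterning, HOX and signalling lists. The region of 1 such gene is not reported here. The members and lists were chosen with earlier results of these data known. The counting, tested on simulated data, recovered 200 of 200 planted regions in each of 4 simulated sets. Alternatives were equal list length, a score threshold, extensions of 100 and 500 bp, a start distance of 2 kb, other class rules, leaving out each library, and the replicate block.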

Additional observations from a re-analysis of the deposited data

How the results depend on the processing

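Of 130 alternative values, 112 kept their direction or, for counts, stayed within 1.5 times, 15 moved and 3 reversed. The p-values were not used in this count. The values of the replicate block were among those that kept their direction, but they could not change. Counts of specific and shared regions with a library left out were made under a looser rule. Some values that kept their direction still changed in size. At equal list length the genotype difference was 71 regions, -0.124 points of share, -0.139 in density and 19.6 percentile points, and the percentile difference was 1.69 above the threshold and 1.70 when every summit had to be coding. The number of regions fell to 923 at equal list length, 726 above a score of 5.83 and 704 when every summit had to be coding. Stop cassette-specific regions numbered 65 at equal length and 86 when every summit had to be coding. Wild type-specific regions numbered 20 at equal length and 1 above the threshold. Regions in all 4 lists numbered 154 above the threshold, 116 when every summit had to be coding and 260 by the highest summit, an alternative chosen after seeing the data. When every summit had to be coding, the share difference between genotypes turned to 0.0561 points, and the differences from intronic and intergenic regions to -0.818 and -5.75 points. The rule itself selects regions with more summits, and no other cause was tested.

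Leaving out each library in turn gave 224 to 369 stop cassette-specific regions (369 when stop cassette replicate 1 was dropped, 337 for wild-type replicate 2) and 9 to 55 wild type-specific regions (55 when stop cassette replicate 2 was dropped, 40 and 29 for wild-type replicates 1 and 2). It gave 442 to 627 regions in all lists that remained and 1096 to 1381 regions in total. With a library left out, its genotype was judged from 1 list, so the rules for specific and shared regions were looser. Those counts do not compare directly with the counts from the full set. The genotype differences were 229 to 472.5 regions, -0.877 to -0.226 points of share, -0.418 to -0.0582 in density and 7.15 to 16.1 in percentile. The percentile differences were 10.5 to 13.3 from introns and 5.36 to 8.99 from intergenic regions.

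With a replicate block the 4 differences between genotypes were 379.5, -0.578, 12.3 and -0.238 (exact permutation p = 0.5 each). The mean of same-number differences equals the difference of the group means, so these values could not change. The difference in percentile between replicates 1 and 2 was taken within each genotype. Over coding exon regions in all 4 lists these differences correlated between genotypes at 0.0817. The value was 0.177 over all regions in all 4 lists. With 2 pairs, and no label that ties the numbers to a shared source, same-numbered samples were not treated as pairs. Of 59 named regions, 41 kept their pattern of lists at equal length, 25 above the threshold, 48 with an extension of 100 bp and 56 with 500 bp. Without read counts the lists show whether a peak was called, not how open a site was, and a region missing from a shorter list may be open there.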
